A study of Mus musculus with 12 samples.

Results

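The BCL2 family decides whether a cell keeps its mitochondrial outer membrane intact. The 10 members described here are the mouse genes Bcl2, Bcl2l1, Mcl1, Bcl2a1a, Bcl2a1b, Bcl2a1d, Bcl2l11, Bid, Bax and Bak1, taken by name out of the 27179 genes counted in 12 RNA-seq libraries of sorted thymic epithelial cells (TECs). All 10 were found and all 10 passed the filter on low counts. The study compared C57BL/6 mice whose TECs lack HOIL (Foxn1creT/+ HOILlox/lox; the deletion is specific to TECs, by Foxn1-driven Cre) with floxed controls whose Foxn1cre allele is written +/+ (Foxn1cre+/+ Hoillox/lox, given as Wild type in the genotype label). Cells of the medulla (mTEChi: MHC class II hi, Ly51neg, UEA1pos) and of the cortex (cTECs: MHC class II pos, Ly51pos, UEA1neg) were sorted from both, after exclusion of CD45pos, TER-119pos and CD31pos cells. This gave 4 groups of 3 libraries each: HOIL-deficient mTEChi, control mTEChi, HOIL-deficient cTECs and control cTECs. Replicate 3 of both HOIL-deficient groups is female and the other libraries are male. The labels give no age and, apart from sex, do not say whether replicates are separate mice. The spread behind each p-value may therefore be technical, wholly in controls or in part in the HOIL-deficient groups.

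Family members fall into groups that act on each other. Pro-survival proteins (BCL2, BCL-XL encoded by Bcl2l1, MCL1 and A1 encoded by the Bcl2a1 genes) hold the effectors BAX and BAK in check, and BH3-only proteins such as BIM (Bcl2l11) and BID release that hold, after which BAX and BAK open the outer membrane and cytochrome c activates caspases. HOIL, encoded by Rbck1, is a subunit of the linear ubiquitin chain assembly complex, which acts in TNF receptor signalling to NF-kB. NF-kB activity was not tested here. In mice, TEC maintenance is known to need Mcl1.

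The Bcl2a1 genes are nearly identical copies on mouse chromosome 9. In GRCm38, Bcl2a1a lies at chr9:88956920-88962416, Bcl2a1b at chr9:89199273-89207838 and Bcl2a1d at chr9:88723288-88731850. Their coding sequences are 516 bases long, differ at 12 positions in all and match in pairs at 97.9 to 98.8% of bases. The first 150 coding bases, which hold 7 of the 12 positions, are shown in the sense direction because they show how little separates reads of one copy from reads of another. Capitals mark the positions that differ among the 3 genes.

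Bcl2a1a: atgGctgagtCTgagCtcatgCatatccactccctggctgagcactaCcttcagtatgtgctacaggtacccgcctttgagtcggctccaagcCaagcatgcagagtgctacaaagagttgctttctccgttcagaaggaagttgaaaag

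Bcl2a1b: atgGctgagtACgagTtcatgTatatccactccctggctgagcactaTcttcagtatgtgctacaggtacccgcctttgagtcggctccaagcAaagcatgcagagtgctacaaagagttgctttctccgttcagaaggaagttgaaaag

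Bcl2a1d: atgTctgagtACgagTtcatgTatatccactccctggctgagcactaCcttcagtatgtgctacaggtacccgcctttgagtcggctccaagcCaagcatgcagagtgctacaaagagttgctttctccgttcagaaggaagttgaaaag

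Of all 75-base windows of the reference transcripts, 44.8% for Bcl2a1a, 31.6% for Bcl2a1b and 32.5% for Bcl2a1d occur in no other gene, 75 bases being the length of a single read. The reads were paired and pairs were not examined, so these shares may understate how often a copy can be told apart. How the authors' counting treated a read that matches several copies is not given in the sources used here. The division of reads among the copies is therefore uncertain, and their summed count is given beside the single genes.

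The promoters of the 3 copies, from 250 bases before the start site to 50 bases after it, were alike where they aligned. In pairs, 250 to 294 of the 300 bases aligned, and these matched at 98.0 to 99.2%. They are shown (RefSeq, GRCm38.p6) because the 3 genes were all called lower in HOIL-deficient mTEChi. Any part of the promoters in that was not tested. Capitals in the Bcl2a1b and Bcl2a1d promoters mark bases that differ from the aligned Bcl2a1a base, and bases with no aligned partner stay in lower case.

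Bcl2a1a promoter, chr9:88956670-88956969, + strand: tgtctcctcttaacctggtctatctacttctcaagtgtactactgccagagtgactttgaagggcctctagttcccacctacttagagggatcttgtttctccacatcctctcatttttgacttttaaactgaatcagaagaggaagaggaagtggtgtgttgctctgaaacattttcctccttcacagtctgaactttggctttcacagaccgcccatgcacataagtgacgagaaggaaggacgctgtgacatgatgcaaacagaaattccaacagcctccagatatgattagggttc

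Bcl2a1b promoter, chr9:89199023-89199322, + strand: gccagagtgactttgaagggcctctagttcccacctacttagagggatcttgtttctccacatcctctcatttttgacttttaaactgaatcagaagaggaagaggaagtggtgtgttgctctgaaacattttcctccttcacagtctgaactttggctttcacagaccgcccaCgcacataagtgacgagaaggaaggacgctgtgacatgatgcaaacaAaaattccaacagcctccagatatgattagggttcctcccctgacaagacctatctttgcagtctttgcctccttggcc

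Bcl2a1d promoter, chr9:88731801-88732100, - strand: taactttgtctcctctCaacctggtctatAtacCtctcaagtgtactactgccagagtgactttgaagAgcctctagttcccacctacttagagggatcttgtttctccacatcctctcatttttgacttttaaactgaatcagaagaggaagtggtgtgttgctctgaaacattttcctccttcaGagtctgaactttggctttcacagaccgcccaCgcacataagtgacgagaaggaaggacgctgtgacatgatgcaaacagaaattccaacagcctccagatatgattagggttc

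A search of both strands for the kB consensus found a match in 1 of the 13 promoter windows of the 10 members, a window of Bcl2l1, against 4.51% of all 32851 mouse promoter windows. A match of letters is a description and not a binding site. The Bcl2l1 window is printed because it holds the only match to the consensus among the members, and the capitals mark that match. It lies inside the gene, which spans chr2:152758732-152833803 on the - strand, and so belongs to an internal start site. Whether that start site is used in these cells was not tested.

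Bcl2l1 promoter, chr2:152830668-152830967, - strand: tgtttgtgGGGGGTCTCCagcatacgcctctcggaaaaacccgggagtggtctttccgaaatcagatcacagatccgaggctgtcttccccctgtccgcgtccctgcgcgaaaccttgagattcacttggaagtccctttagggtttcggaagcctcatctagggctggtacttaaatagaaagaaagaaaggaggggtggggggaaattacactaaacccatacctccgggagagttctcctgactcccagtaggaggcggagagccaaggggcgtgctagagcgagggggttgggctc

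Depth and the check of the deletion concern all libraries alike. Total counts ran from 7941217 to 14274333 a library, and levels are given as CPM, counts scaled to that total, or as RPKM, scaled to gene length as well, where genes are compared with each other. Rbck1 had 10.9, 11.7 and 23.3 CPM in HOIL-deficient mTEChi, against 114, 128 and 108 CPM in control mTEChi, and 22.0, 33.0 and 22.6 CPM in HOIL-deficient cTECs, against 183, 236 and 221 CPM in control cTECs. Aire, a marker of mTEChi, ran from 577 to 1016 CPM in mTEChi and from 0.00 to 1.66 CPM in cTECs. Psmb11, a marker of cTECs, ran from 55.0 to 114 CPM in mTEChi, and was at 1452 to 1687 CPM in HOIL-deficient cTECs, against 3365 to 4404 CPM in control cTECs. The 10 cTEC markers summed to 30210 to 32470 CPM in HOIL-deficient cTECs, against 53560 to 68270 CPM in control cTECs, and 8 of them were called lower. In mTEChi the cTEC markers summed to 3614 to 4903 CPM in HOIL-deficient libraries, against 2942 to 3507 CPM in control libraries. Of these markers 4 were called higher and 1 lower. The 10 mTEChi markers summed to 12110 to 15240 CPM in HOIL-deficient mTEChi, against 8811 to 11310 CPM in control mTEChi. Of them 2 were called higher and 2 lower. These shifts stand beside every comparison of HOIL-deficient with control cells given here, and their part in them was not tested. Control mTEChi stood apart in RNA make-up: mitochondrial genes took 1.71 to 1.91% of counts in HOIL-deficient mTEChi, against 8.93, 3.19 and 4.35% in control mTEChi replicates 1 to 3. The nuclear RNA Malat1 took 0.713 to 0.983% in HOIL-deficient mTEChi, against 3.29 to 5.13% in control mTEChi. Markers of other cells moved too. The 17 thymocyte markers summed to 442 to 871 CPM in HOIL-deficient cTECs, against 1097 to 3842 CPM in control cTECs, and 13 of them fell. Fibroblast markers summed to 2577 to 3696 CPM in HOIL-deficient cTECs, against 153 to 1376 CPM in control cTECs, and to 630 to 827 CPM in HOIL-deficient mTEChi, against 298 to 372 CPM in control mTEChi. The 10 endothelial markers summed to 135 to 430.4 CPM in HOIL-deficient mTEChi, against 85.8 to 109.6 CPM in control mTEChi, with 5 called higher. In cTECs they summed to 84.6 to 224 CPM in HOIL-deficient libraries, against 23.6 to 42.8 CPM in control libraries, with 8 called higher. Pecam1, which encodes the CD31 used to sort such cells out, was at 34.1 to 116 CPM in HOIL-deficient mTEChi, against 7.65 to 13.7 CPM in control mTEChi, and at 29.7 to 84.7 CPM in HOIL-deficient cTECs, against 16.4 to 26.5 CPM in control cTECs. The part of these cells in the values given here was not tested.

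Loss of HOIL was accompanied in mTEChi by lower RNA of 4 pro-survival members, all 3 Bcl2a1 copies and Bcl2l1, while Mcl1, Bcl2, the BH3-only genes and the effectors did not pass the test. In cTECs, where Bcl2a1 RNA was near 0, Bcl2l1 was the 1 member called, and most alternatives lost that call. A gene is called where edgeR's adjusted p over all 19398 tested genes is under 0.05; SE is the standard error of a log2 fold change. In mTEChi 0 of 10 members were called higher and 4 lower, where 11.3% of all tested genes were called higher and 8.59% lower (19.9% in all). The median log2 fold change of the 10 members was -0.41, against -0.03 over all tested genes. The near-identical Bcl2a1 copies enter the count, the median and the count of members without overlap 3 times. Because the division of their reads is uncertain, they are not 3 separate results. Added up with Bcl2a1c they were called lower as 1, at -1.03 (edgeR adjusted p = 0.00068). In cTECs 0 members were called higher and 1 lower, where 6.06% of tested genes were called higher and 6.02% lower (12.1% in all); the median was -0.11 for the members, against -0.02 for all genes. Libraries of the groups did not overlap for 1 higher and 4 lower members in mTEChi, against 44.5% of tested genes in either direction, and for 1 higher and 3 lower members in cTECs, against 27.8%.

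**Figure D1:**
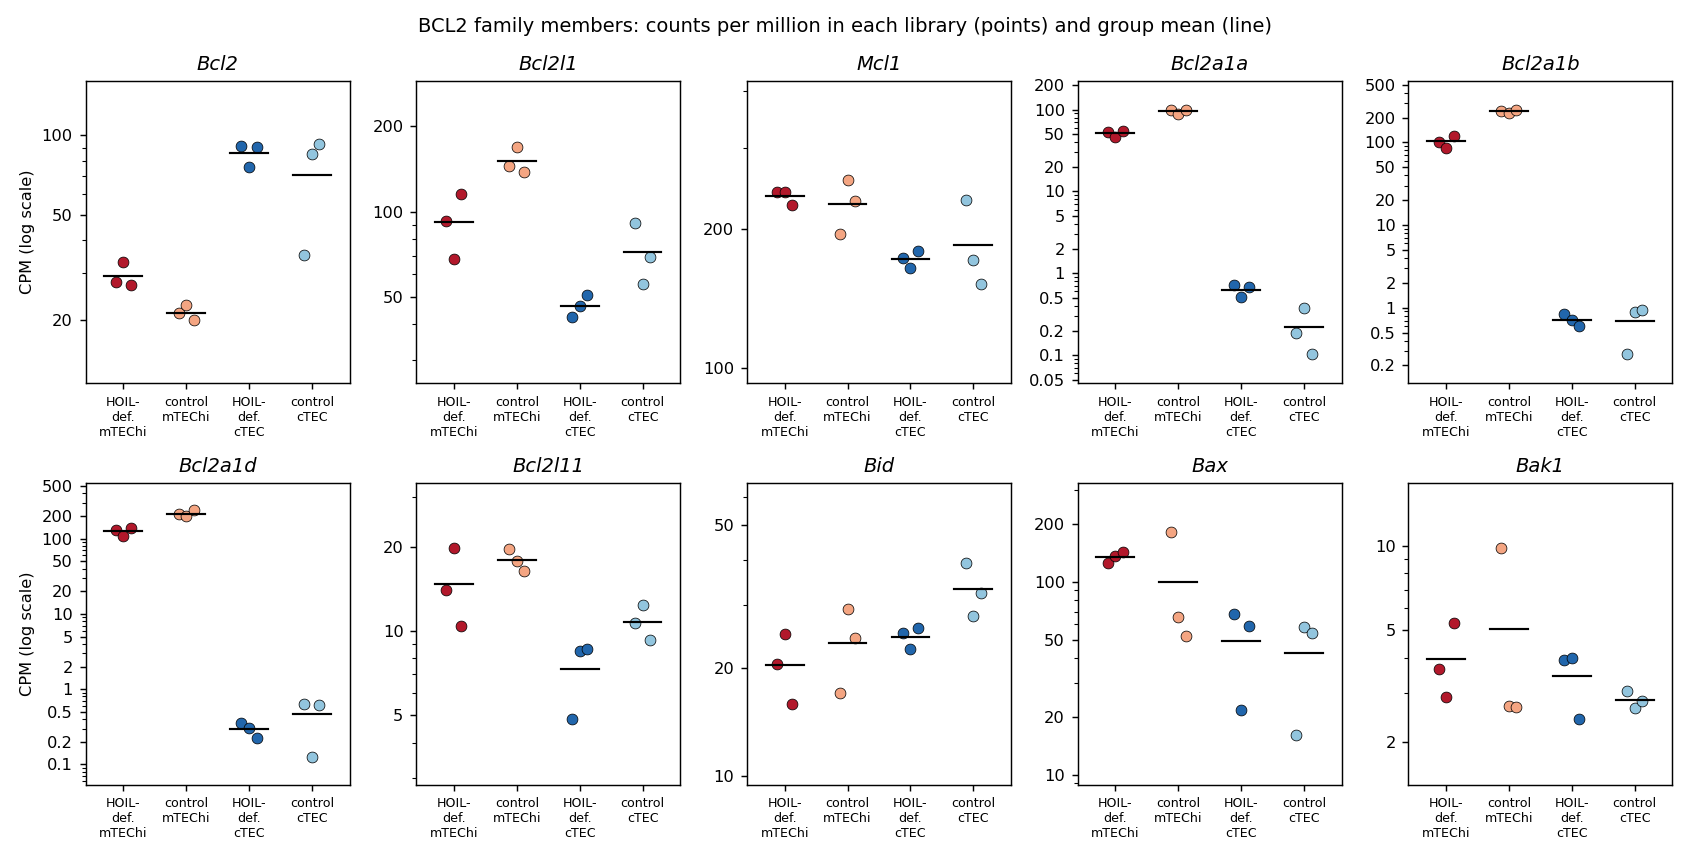
CPM of each of the 10 members (log axis, a separate range for each gene) in the 4 groups; points are libraries, lines are group means. The 3 Bcl2a1 genes and Bcl2l1 lie lower in HOIL-deficient mTEChi than in control mTEChi without overlap, and 1 control mTEChi library lies far above the other 2 for Bax and Bak1.

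A1 is a short-lived pro-survival protein best known from blood cells. Bcl2a1b, its most abundant copy in control mTEChi, had 100.9, 86.7 and 120.4 CPM in HOIL-deficient mTEChi, against 238, 227 and 246 CPM in control mTEChi. Every HOIL-deficient library was far below every control library. Its log2 fold change was -1.27 (adjusted p = 0.001, SE 0.20). Bcl2a1d had 131, 109.5 and 139 CPM in HOIL-deficient mTEChi, against 209, 198.5 and 236 CPM in control mTEChi, a log2 fold change of -0.83 (adjusted p = 0.0092, SE 0.19). Bcl2a1a had 52.9, 45.9 and 54.5 CPM in HOIL-deficient mTEChi, against 98.9, 89.2 and 99.1 CPM in control mTEChi, a log2 fold change of -0.97 (adjusted p = 0.0038, SE 0.19). For all 3 copies each HOIL-deficient library was below each control library. The calls held in all 20 alternatives in which each copy had its own value.

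Because reads may be shared, the copies were also added up together with Bcl2a1c, the fourth copy, which lies apart at chr9:114330135-114330578. The sum was 286, 246 and 315 CPM in HOIL-deficient mTEChi, against 550.1, 517 and 585 CPM in control mTEChi. It fell by 1.03 on the log2 scale (adjusted p = 0.00068, SE 0.15). A read moved from 1 copy to another leaves this sum unchanged, whereas reads dropped as ambiguous are missing from it. A read counted at several copies would be in it more than once. Exons of Bcl2a1b also overlap those of Gm29094 on the same strand. Within the sum the copies did not move evenly. Bcl2a1b took 35.3, 35.3 and 38.2% of the reads of the 4 copies in HOIL-deficient mTEChi, against 43.4, 43.9 and 42.1% in control mTEChi. Bcl2a1d took 45.9, 44.6 and 44.1% in HOIL-deficient mTEChi, against 37.99, 38.4 and 40.4% in control mTEChi. The shares of Bcl2a1b were lower and those of Bcl2a1d higher in HOIL-deficient mTEChi, without overlap, whereas the shares of Bcl2a1a, 17.3 to 18.7% against 16.9 to 17.98%, overlapped. These differences in share were not tested.

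Cells of the blood lineage express Bcl2a1 genes, so the markers of such cells belong beside these values. The 16 listed dendritic cell and macrophage markers summed to 1149, 922 and 937 CPM in HOIL-deficient mTEChi, against 852, 1283 and 1204 CPM in control mTEChi. The groups overlapped, and of the 15 markers tested 0 were called higher and 0 lower. Of the defining markers, Itgax was at 0.0987 to 3.57 CPM in HOIL-deficient mTEChi and 0.827 to 2.66 CPM in control mTEChi, and Csf1r at 14.1 to 17.4 CPM in HOIL-deficient mTEChi and 17.6 to 21.0 CPM in control mTEChi. Csf1r was thus lower without overlap, as was Fcer1g, at 31.7 to 50.8 CPM in HOIL-deficient mTEChi against 84.0 to 103 CPM in control mTEChi. Granulocyte markers summed to 333, 260.2 and 572 CPM in HOIL-deficient mTEChi, against 483, 488 and 511 CPM in control mTEChi, with 1 of 7 called lower. The pan-leukocyte gene Ptprc was at 13.6 to 27.1 CPM in HOIL-deficient mTEChi and at 10.1 to 19.4 CPM in control mTEChi. None of these lists was at 0 and their part in the Bcl2a1 values was not tested; in bulk libraries fewer cells of a type and less RNA per cell cannot be told apart.

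In cTECs Bcl2a1a, Bcl2a1b and Bcl2a1d had 1 to 9 counts each a library. Bcl2a1a had 6, 5 and 9 counts in HOIL-deficient cTECs, against 2, 3 and 1 in control cTECs, and its log2 fold change of 1.44 was not called (adjusted p = 0.092, SE 0.47). Bcl2a1b had 7, 7 and 8 counts in HOIL-deficient cTECs, against 3, 7 and 9 in control cTECs, and Bcl2a1d had 3, 3 and 3 counts in HOIL-deficient cTECs, against 7, 1 and 6 in control cTECs. At this depth no change of a copy passed the test. The sum of the copies was 16, 15 and 20 counts in HOIL-deficient cTECs, against 12, 11 and 16 in control cTECs, with a log2 fold change of 0.16 (adjusted p = 0.84, SE 0.24). The effect in mTEChi minus that in cTECs was -1.19 for the sum (adjusted p = 0.02, SE 0.28) and -2.41 for Bcl2a1a (adjusted p = 0.0098, SE 0.50). The copies passed the filter on low counts through mTEChi and did not pass it with the cTEC groups alone, so these values describe the libraries and are not read as a difference in the effect of HOIL deficiency. Bcl2a1a was the 1 member past the threshold in this contrast, where 9.84% of tested genes were called, 5.97% higher and 3.86% lower.

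Bcl2l1 encodes BCL-XL, the broadly expressed pro-survival protein, and lies on the - strand at chr2:152758732-152833803. It had 92.8, 68.0 and 115 CPM in HOIL-deficient mTEChi, against 145, 168 and 138 CPM in control mTEChi. It had 42.6, 46.3 and 50.6 CPM in HOIL-deficient cTECs, against 90.8, 55.5 and 69.3 CPM in control cTECs. In both cell types each HOIL-deficient library lay below each control library. The log2 fold change was -0.77 in mTEChi (adjusted p = 0.021, SE 0.21) and -0.72 in cTECs (adjusted p = 0.041, SE 0.21). The difference between the effects was -0.05, with a 95% interval of -0.69 to 0.59. The mTEChi call held in 17 of 21 alternatives; it was lost without HOIL-deficient mTEChi replicate 1 or 2 or without control mTEChi replicate 1 or 2, at adjusted p = 0.057 to 0.09. The cTEC call held in only 5 of 21 alternatives. Without control cTEC replicate 1, the library with the most Bcl2l1 and with the 3842 CPM of thymocyte markers, the cTEC change was -0.50 (adjusted p = 0.14), and the part of those cells in the value was not tested. The cTEC call was also lost without any of HOIL-deficient cTEC replicates 1 to 3, control cTEC replicate 3, HOIL-deficient mTEChi replicate 1 or control mTEChi replicates 1 to 3 (adjusted p = 0.055 to 0.11).

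**Figure D2:**
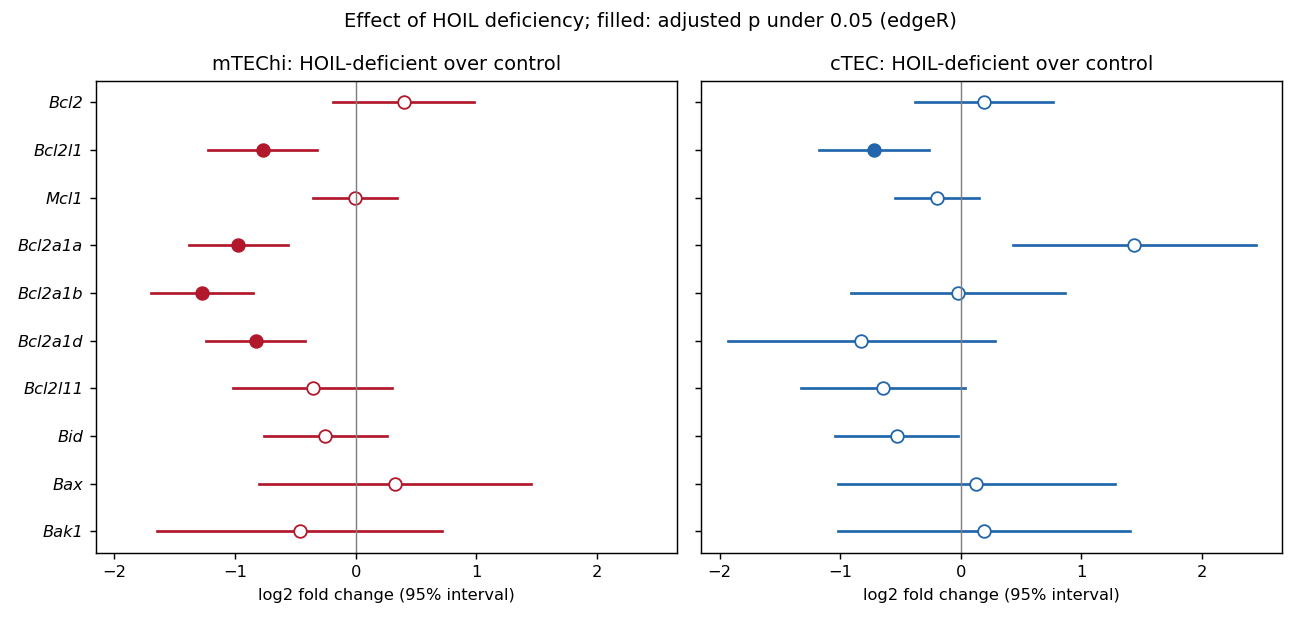
Log2 fold change of HOIL-deficient over control libraries for the 10 members in mTEChi (left) and cTECs (right); points are edgeR estimates, bars their 95% intervals, filled points have adjusted p under 0.05. The called members are the 3 Bcl2a1 genes and Bcl2l1 in mTEChi and Bcl2l1 in cTECs, all below 0.

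Mcl1, whose short-lived protein restrains BAK and BIM, was not called in either cell type. It had 241, 241 and 226 CPM in HOIL-deficient mTEChi, against 195.5, 256 and 231 CPM in control mTEChi, and 173, 164.5 and 179 CPM in HOIL-deficient cTECs, against 232, 171 and 152 CPM in control cTECs. In both cell types every HOIL-deficient library lay within the range of the controls. The log2 fold change was -0.00 in mTEChi, with a 95% interval of -0.35 to 0.34, and -0.20 in cTECs, with an interval of -0.54 to 0.15. A change as large as that of Bcl2a1a in mTEChi lies outside both intervals. Bcl2, the founding pro-survival gene, had 27.9, 33.2 and 27.0 CPM in HOIL-deficient mTEChi, against 21.2, 22.8 and 19.9 CPM in control mTEChi. Each HOIL-deficient library was higher, but the log2 fold change of 0.40 was not called (adjusted p = 0.33, SE 0.28). In cTECs Bcl2 had 91.1, 76.0 and 90.0 CPM in HOIL-deficient libraries, against 35.1, 84.9 and 93.1 CPM in control libraries. Control replicate 1 stood apart, and without it the log2 fold change of 0.19 (adjusted p = 0.72) became -0.13. Exons of Bcl2 overlap those of D630008O14Rik on the other strand; no use of strand in the counting is stated, so reads of the pair cannot be told apart.

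The BH3-only members were not called in either cell type. Bcl2l11 encodes BIM, which binds all pro-survival proteins. It had 14.0, 19.7 and 10.4 CPM in HOIL-deficient mTEChi, against 19.5, 17.8 and 16.4 CPM in control mTEChi, which overlap, with a log2 fold change of -0.36 (95% interval -1.02 to 0.30). In cTECs it had 4.86, 8.50 and 8.60 CPM in HOIL-deficient libraries, against 10.7, 12.3 and 9.30 CPM in control libraries. These did not overlap, and the log2 fold change was -0.64 (adjusted p = 0.21, SE 0.32). Bid, whose protein links death receptors to mitochondria once caspase-8 cleaves it, had 20.5, 24.9 and 15.8 CPM in HOIL-deficient mTEChi, against 17.0, 29.2 and 24.2 CPM in control mTEChi. The groups overlapped, at a log2 fold change of -0.25 (95% interval -0.76 to 0.26). In cTECs Bid had 25.0, 22.5 and 25.8 CPM in HOIL-deficient libraries, against 39.2, 27.8 and 32.3 CPM in control libraries. The HOIL-deficient libraries were all lower, with a log2 fold change of -0.53 (adjusted p = 0.17, SE 0.24). Control cTEC replicate 1, with the most Bid, is again the library with the most thymocyte marker RNA, and the part of thymocytes in these values was not tested. Exons of Bid overlap those of Bcl2l13 on the other strand, and their reads cannot be told apart.

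The effectors were not called in either cell type, and single libraries stood far from the rest of their group. Bax had 125, 135 and 142 CPM in HOIL-deficient mTEChi, against 180.2, 65.7 and 52.2 CPM in control mTEChi. The HOIL-deficient libraries lay close together inside the wide control range, and the log2 fold change was 0.33 (95% interval -0.81 to 1.46). Without control mTEChi replicate 1, the library with 8.93% mitochondrial counts, it was 1.15 and still not called. In cTECs Bax had 67.8, 21.6 and 58.8 CPM in HOIL-deficient libraries, against 16.0, 58.0 and 54.2 CPM in control libraries. Each group thus had 1 low library, and the log2 fold change was 0.13 (95% interval -1.02 to 1.28). Bak1, the other effector, had 3.65, 2.90 and 5.32 CPM in HOIL-deficient mTEChi, against 9.83, 2.69 and 2.66 CPM in control mTEChi. Control replicate 1 was again the high library; the log2 fold change of -0.46 (adjusted p = 0.6) became 0.53 without it. In cTECs Bak1 had 3.91, 3.996 and 2.41 CPM in HOIL-deficient libraries, against 3.04, 2.64 and 2.79 CPM in control libraries, which overlap. At 21 to 96 counts a library, only a large change of Bak1 was detectable. Exons of Bax overlap those of Gm45808 on the same strand, and exons of Bak1 those of Ggnbp1 on the other strand, so that counts of both effectors may include or lose reads of these neighbours.

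Bcl2a1 RNA was abundant in mTEChi and near 0 in cTECs, with and without HOIL, whereas Bcl2l1, Mcl1 and Bax RNA was well detected in both cell types. In HOIL-deficient cells 7 of 10 members were higher in mTEChi than in cTECs and 1 was lower, where 32.0% of tested genes were called higher and 16.4% lower (48.4% in all). In controls 6 were higher and 1 lower, where 37.8% of tested genes were called higher and 26.4% lower (64.2% in all). Libraries did not overlap for 8 members in HOIL-deficient cells (57.9% of tested genes) and for 6 in controls (71.2%). These comparisons use the same libraries as the HOIL comparisons. The median of the members was 1.11 in HOIL-deficient cells and 1.07 in controls (log2 of mTEChi over cTECs), against 0.20 and 0.24 for all tested genes. The 3 Bcl2a1 genes are in these counts and medians and had to differ, since they passed the filter through mTEChi, and in controls the count lies near the share of all genes called. The Bcl2a1 copies accounted for the extremes: the sum was 282 ± 34.8 CPM in HOIL-deficient mTEChi against 1.65 ± 0.215 CPM in HOIL-deficient cTECs (SD, n = 3 each), and 551 ± 34.1 CPM in control mTEChi against 1.38 ± 0.274 CPM in control cTECs. Bcl2a1c had 0 counts in all 6 cTEC libraries and was at least 19.5-fold higher in HOIL-deficient mTEChi and at least 31.6-fold higher in control mTEChi, with 3 counts over the group taken as the floor for counting error. Markers of blood cells differed as well. Dendritic cell and macrophage markers summed to 852 to 1283 CPM in control mTEChi, against 32.2 to 41.3 CPM in control cTECs. Granulocyte markers summed to 483 to 511 CPM, against 0.882 to 43.8 CPM. In HOIL-deficient cells both lists were likewise higher in mTEChi, whereas Ptprc and the thymocyte markers were higher in cTECs in both genotypes. The part of these cells in the Bcl2a1 values was not tested.

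Bcl2l1 was higher in mTEChi by 1.10 on the log2 scale in HOIL-deficient cells (adjusted p = 0.00066, SE 0.21) and by 1.15 in controls (adjusted p = 0.00032, SE 0.21). Bcl2 ran the other way. It was lower in mTEChi, at -1.43 in HOIL-deficient cells (adjusted p = 0.00063, SE 0.27) and -1.63 in controls (adjusted p = 0.00017, SE 0.28), and every mTEChi library was below every cTEC library of its genotype. Mcl1 was higher in HOIL-deficient mTEChi than in HOIL-deficient cTECs by 0.58 (adjusted p = 0.009, SE 0.16). In controls its value of 0.38 narrowly missed the threshold (adjusted p = 0.051, SE 0.16) and was called in 6 of 22 alternatives, among them those without control cTEC replicate 1 (0.59, adjusted p = 0.0026) or control mTEChi replicate 1 (0.45, adjusted p = 0.036). Scaling by RLE factors gave 0.57 for Mcl1, with a median over all genes of 0.43 in place of 0.24.

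Bcl2l11 was higher in mTEChi by 1.12 in HOIL-deficient cells (adjusted p = 0.009, SE 0.32) and by 0.83 in controls (adjusted p = 0.03, SE 0.31). The control call was lost without control cTEC replicate 1 or 3 or control mTEChi replicate 1 or 2 (adjusted p = 0.051 to 0.11). Bax was higher in mTEChi by 1.56 in HOIL-deficient cells (adjusted p = 0.028, SE 0.54) and by 1.36 in controls (adjusted p = 0.039, SE 0.54). Its control libraries overlapped, and without control mTEChi replicate 1 the control value was 0.53 (adjusted p = 0.35). That call was also lost without control cTEC replicate 1 or 3 or HOIL-deficient cTEC replicate 3 (adjusted p = 0.055 to 0.13). The call in HOIL-deficient cells was lost without HOIL-deficient cTEC replicate 2 or 3 or HOIL-deficient mTEChi replicate 2 or 3 (adjusted p = 0.052 to 0.097). Bid and Bak1 were not called between the cell types in either genotype.

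On the length-scaled level, which allows genes to be compared, the pro-survival genes of mTEChi were mostly Bcl2a1. The Bcl2a1 levels and shares depend on how reads that match several copies were counted, which is not given. Bcl2a1a, Bcl2a1b and Bcl2a1d together made up 76.3 ± 1.17% of the summed RPKM of the 6 pro-survival members in HOIL-deficient mTEChi and 84.2 ± 2.13% in control mTEChi (SD, n = 3 each). The sum itself was 468 ± 53.8 RPKM in HOIL-deficient mTEChi and 831 ± 34.2 RPKM in control mTEChi, without overlap. In cTECs the Bcl2a1 share was 2.57 ± 0.370% in HOIL-deficient and 1.94 ± 0.604% in control libraries, and Mcl1 held the largest share, 60.1 ± 0.555% in HOIL-deficient and 55.9 ± 5.15% in control libraries. The sum was 82.1 ± 3.91 RPKM in HOIL-deficient cTECs and 94.3 ± 14.2 RPKM in control cTECs. The ratio of Mcl1 to Bcl2l1 RPKM was 1.34 to 2.41 in HOIL-deficient mTEChi, against 0.920 to 1.14 in control mTEChi. In cTECs it was 2.41 to 2.76 in HOIL-deficient libraries, against 1.49 to 2.09 in control libraries. The ratio was higher without overlap in both cell types, a description that was not tested.

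**Figure D3:**
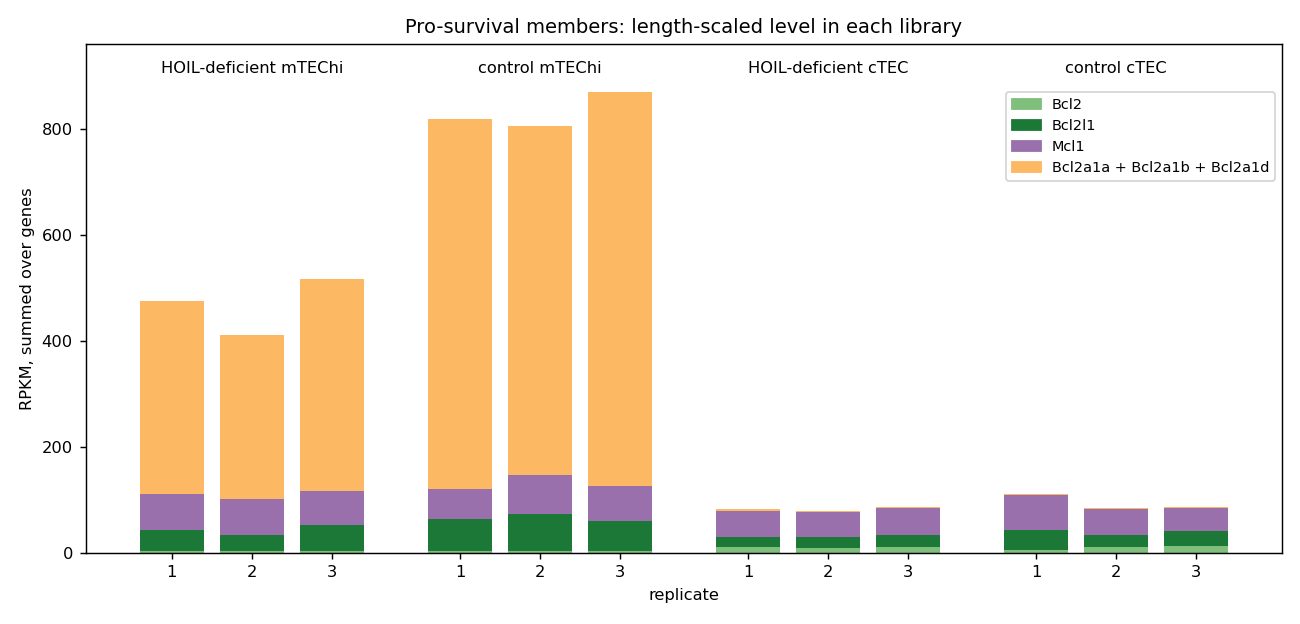
RPKM of the 6 pro-survival members stacked for each library (bars start at 0; the 3 Bcl2a1 genes are drawn as 1 block). The sums run from 411 to 518 RPKM in HOIL-deficient mTEChi, 805 to 870.1 in control mTEChi, 78.5 to 86.2 in HOIL-deficient cTECs and 85.2 to 111 in control cTECs.

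The order of the members by RPKM differed between the cell types. In control mTEChi it ran from Bcl2a1b (310.3 ± 12.8) and Bcl2a1d (269.5 ± 24.5) to Bcl2a1a (120.3 ± 7.06), Bax (114 ± 80.9), Mcl1 (65.2 ± 8.69) and Bcl2l1 (63.4 ± 6.76), and then to Bid (12.4 ± 3.23), Bcl2l11 (3.56 ± 0.311), Bcl2 (2.75 ± 0.184) and Bak1 (2.53 ± 2.06) (SD, n = 3 each). Libraries of neighbours overlapped from Bcl2a1a to Bcl2l1 and between Bcl2 and Bak1, and the lowest library of Bcl2a1b and the highest of Bcl2a1d met at 296.7 RPKM; the other neighbours did not overlap. In HOIL-deficient mTEChi the leading members were Bcl2a1d (159 ± 19.2), Bax (154 ± 9.59) and Bcl2a1b (134 ± 22.2), whose libraries overlapped. In control cTECs the leading members were Mcl1 (53.0 ± 11.9), Bax (49.2 ± 26.7) and Bcl2l1 (30.3 ± 7.50), and in HOIL-deficient cTECs Bax (56.8 ± 28.2), Mcl1 (49.4 ± 2.11) and Bcl2l1 (19.6 ± 1.68). Bax and Mcl1 overlapped in both cTEC groups.

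**Figure D4:**
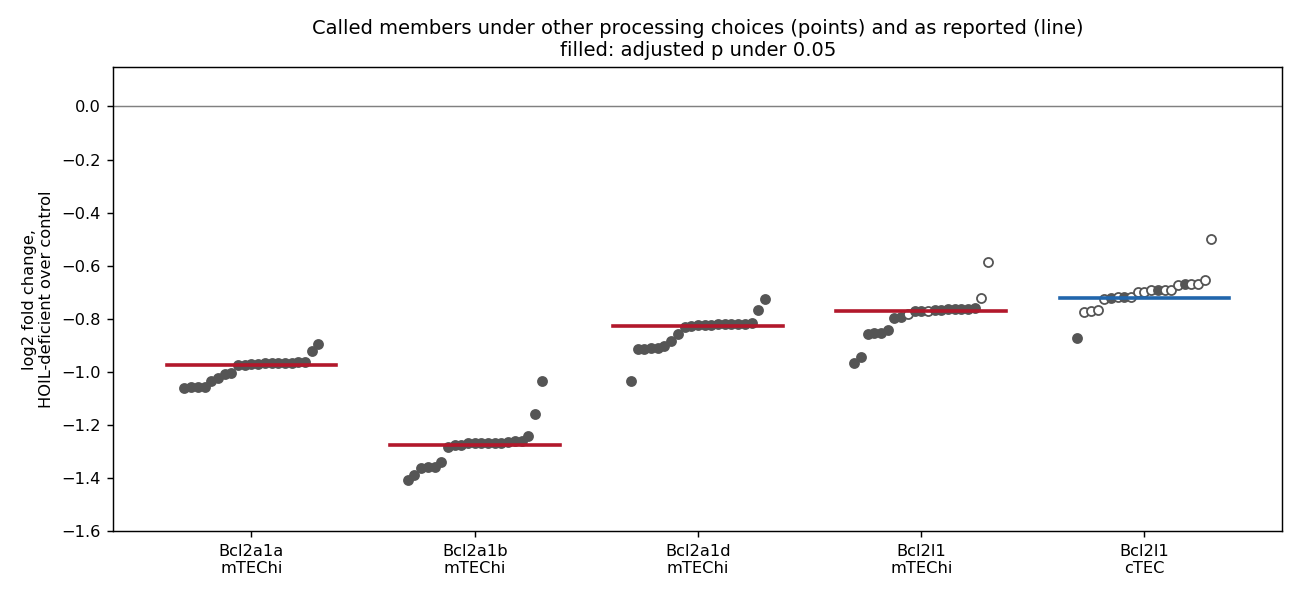
Log2 fold change of HOIL-deficient over control libraries for the called members under each alternative (points, sorted, with the paralog sum as 1 point for each Bcl2a1 gene; filled where adjusted p is under 0.05) and as reported (line). All points lie below 0; those of the 3 Bcl2a1 genes are filled throughout, those of Bcl2l1 in 17 of 21 alternatives in mTEChi and in 5 of 21 in cTECs.

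Of the wider family, BCL-W and Bcl2l15 RNA was lower and NIX and BOK RNA higher in HOIL-deficient mTEChi. Of 17 further family genes 16 were tested. In mTEChi 2 rose and 2 fell with HOIL deficiency, which is near the shares over all tested genes (11.3% higher and 8.59% lower). The median of the 16 was -0.45, against -0.03 over all tested genes. Bcl2l2, which encodes the pro-survival protein BCL-W, had 4.54, 6.45 and 6.59 CPM in HOIL-deficient mTEChi, against 21.4, 17.8 and 19.4 CPM in control mTEChi. It was lower without overlap, at a log2 fold change of -1.81 (adjusted p = 0.0031, SE 0.34). Bcl2l15 had 34.9, 37.5 and 34.4 CPM in HOIL-deficient mTEChi, against 109, 84.1 and 79.8 CPM in control mTEChi, and fell by 1.43 (adjusted p = 0.0088, SE 0.33). Bnip3l, which encodes the mitophagy receptor NIX, had 344, 373 and 303 CPM in HOIL-deficient mTEChi, against 170.2, 177 and 182 CPM in control mTEChi, and rose by 0.88 (adjusted p = 0.0017, SE 0.15). These calls held in all 21 alternatives. Bok, a BAX-like effector, had 171, 128 and 179 CPM in HOIL-deficient mTEChi, against 66.3, 117 and 86.2 CPM in control mTEChi, at 0.78 (adjusted p = 0.012, SE 0.19). That call held in 17 of 21 alternatives and was lost with males only (adjusted p = 0.054) and without HOIL-deficient mTEChi replicate 3 or control mTEChi replicate 1 or 3 (adjusted p = 0.057 to 0.065).

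In cTECs 1 of the 16 tested genes, Bnip3, was called, and it was lower, which is near the share over all tested genes (6.06% higher and 6.02% lower). Bnip3, a relative of Bnip3l that also takes part in mitophagy, had 107, 131 and 93.4 CPM in HOIL-deficient cTECs, against 180.0, 183.5 and 139 CPM in control cTECs. The libraries did not overlap, and the log2 fold change was -0.69 (adjusted p = 0.041, SE 0.20). The call held in 9 of 21 alternatives and was lost without HOIL-deficient cTEC replicate 1 or 3, control cTEC replicate 1 or 2, HOIL-deficient mTEChi replicate 2 or 3 or control mTEChi replicate 3 (adjusted p = 0.052 to 0.13). RLE factors (adjusted p = 0.062) and upper-quartile factors (adjusted p = 0.072) were among the settings that ended it. Between the cell types the list differed widely. In HOIL-deficient cells 9 of 16 were higher in mTEChi and 1 lower (background 32.0% and 16.4%), and in controls 10 were higher and 3 lower (background 37.8% and 26.4%). Both counts of higher genes include Bcl2a1c. It had 0 counts in all cTEC libraries, passed the filter through mTEChi and had to differ. Pmaip1, which encodes NOXA, a BH3-only protein that binds MCL1, averaged 144 ± 12.4 CPM in HOIL-deficient mTEChi against 2.91 ± 1.602 CPM in HOIL-deficient cTECs, and 129 ± 24.2 CPM in control mTEChi against 2.59 ± 0.708 CPM in control cTECs (SD, n = 3 each). Bik, another BH3-only gene, was 4.61 higher in HOIL-deficient mTEChi (adjusted p = 4.7e-07, SE 0.40) and 6.72 higher in control mTEChi (adjusted p = 4.1e-08, SE 0.47) on the log2 scale. Bik had 7, 22 and 21 counts in HOIL-deficient cTECs and 8, 5 and 1 in control cTECs. Genes this low in cTECs pass the filter on low counts largely through mTEChi, so the Bik values describe the libraries only. Bcl2l14, which encodes BCL-G, was 4.51 higher in HOIL-deficient mTEChi (adjusted p = 6.9e-08, SE 0.32) and 5.90 higher in control mTEChi (adjusted p = 1e-08, SE 0.35).

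**Figure D5:**
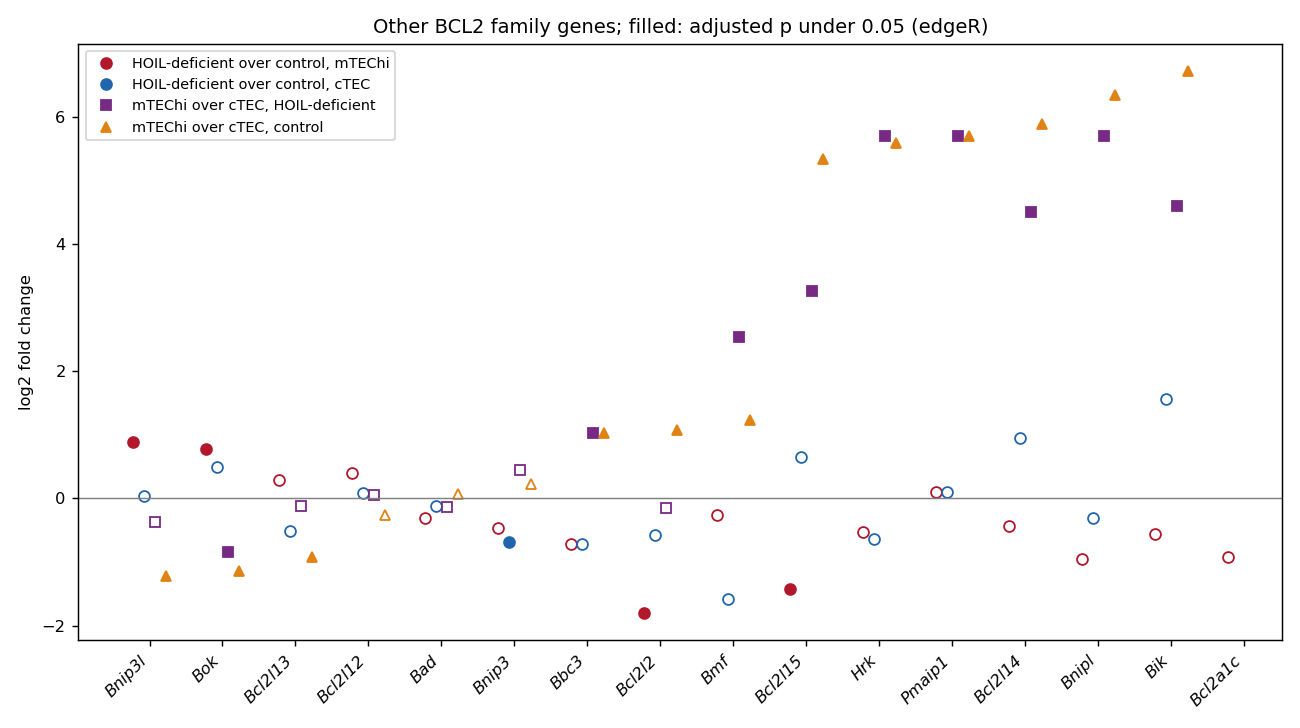
Log2 fold changes of the 16 tested other family genes for HOIL-deficient over control cells in mTEChi and cTECs (circles) and for mTEChi over cTECs in HOIL-deficient (squares) and control cells (triangles); filled symbols have adjusted p under 0.05. Bcl2a1c, at 0 counts in cTECs, is drawn for mTEChi only. The HOIL effects lie between -1.81 (Bcl2l2 in mTEChi) and 1.56 (Bik in cTECs, open symbol), whereas the cell type differences reach 6.72 for Bik in controls. Bik had only 8, 5 and 1 counts in control cTECs.

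Of 20 further genes linked to apoptosis, 5 rose and 2 fell in HOIL-deficient mTEChi (background 11.3% and 8.59%). The list median was 0.14, against -0.03 over all tested genes. Aifm1, which encodes the flavoprotein AIF of the intermembrane space, had 65.0, 67.1 and 67.1 CPM in HOIL-deficient mTEChi, against 27.0, 32.8 and 30.6 CPM in control mTEChi. It rose by 1.08 (adjusted p = 0.00057, SE 0.15). Birc5, which encodes survivin, an inhibitor of apoptosis family protein that also acts in mitosis, had 78.4, 87.3 and 64.2 CPM in HOIL-deficient mTEChi, against 19.2, 24.0 and 25.3 CPM in control mTEChi, and rose by 1.69 (adjusted p = 0.0038, SE 0.33). Vdac3, an outer membrane channel, had 209, 210.5 and 182 CPM in HOIL-deficient mTEChi, against 98.7, 125 and 131 CPM in control mTEChi, and rose by 0.71 (adjusted p = 0.0055, SE 0.15). In these 3 genes the groups did not overlap, and their calls held in all 21 alternatives. Endog, a mitochondrial nuclease, had 24.1, 22.3 and 21.2 CPM in HOIL-deficient mTEChi, against 31.7, 35.6 and 35.2 CPM in control mTEChi, at -0.66 (adjusted p = 0.027, SE 0.19). Leaving out any of the 6 mTEChi libraries ended the Endog call (adjusted p = 0.052 to 0.082), as did males only (0.1). The other gene that fell was Vdac1, at -0.64 (adjusted p = 0.031), named here only to complete the count. The inhibitor of apoptosis Birc3 had 338, 273.5 and 299.8 CPM in HOIL-deficient mTEChi, against 140.2, 242 and 197 CPM in control mTEChi, at 0.60 (adjusted p = 0.028, SE 0.17), a call that held in 14 of 21 alternatives. It was lost without HOIL-deficient mTEChi replicate 1 or 3 or control mTEChi replicate 1 or 3 (adjusted p = 0.071 to 0.12), with RLE or upper-quartile factors (both 0.053) and with males only (0.067).

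Casp2, an initiator caspase, was called higher in HOIL-deficient mTEChi and lower in HOIL-deficient cTECs, the first of these in 12 of 21 alternatives. It had 40.6, 62.3 and 35.7 CPM in HOIL-deficient mTEChi, against 17.3, 28.3 and 32.2 CPM in control mTEChi, a log2 fold change of 0.78 (adjusted p = 0.04, SE 0.25). It had 55.1, 53.1 and 47.4 CPM in HOIL-deficient cTECs, against 116, 81.8 and 88.4 CPM in control cTECs, a log2 fold change of -0.97 (adjusted p = 0.021, SE 0.24). The mTEChi call was lost without HOIL-deficient mTEChi replicate 1 or 2, control mTEChi replicate 1 or 2 or control cTEC replicate 3 (adjusted p = 0.052 to 0.19). It was also lost with RLE factors (0.065), upper-quartile factors (0.071), limma-voom (0.056) and the replicate block (0.068). The cTEC call was lost without HOIL-deficient cTEC replicate 2 or 3 or control cTEC replicate 1 (adjusted p = 0.051 to 0.065) and with males only (0.067). The difference between the effects, 1.75 (adjusted p = 0.0089, SE 0.35), was called in all 21 alternatives. Casp2 was the 1 gene of the 20 called in cTECs, where 12.1% of all tested genes were called. Between the cell types, 8 of 20 were higher and 1 lower in HOIL-deficient mTEChi, where 32.0% and 16.4% of all tested genes were, and 6 were higher and 8 lower in control mTEChi, where 37.8% and 26.4% were. Cycs, which encodes cytochrome c, was higher in mTEChi by 1.05 in HOIL-deficient cells (adjusted p = 0.00061, SE 0.20) and by 1.92 in controls (adjusted p = 2.6e-06, SE 0.20). Htra2, a mitochondrial protease that binds inhibitors of apoptosis, was higher by 0.88 (adjusted p = 0.00053, SE 0.17) and by 1.01 (adjusted p = 0.00013, SE 0.17) in the same comparisons, and Casp2 was lower in control mTEChi by 1.80 (adjusted p = 3.2e-05, SE 0.25).

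Of 9 genes known to control the turnover of MCL1 or the transcription and turnover of BIM, 8 were tested. In mTEChi 0 rose and 2 fell with HOIL deficiency (list median -0.25, all genes -0.03; background 11.3% and 8.59%), and in cTECs 0 rose and 3 fell (list median -0.60, all genes -0.02; background 6.06% and 6.02%). Huwe1, a ubiquitin ligase for MCL1, had 66.9, 57.3 and 77.6 CPM in HOIL-deficient mTEChi, against 90.9, 96.0 and 85.1 CPM in control mTEChi, at -0.50 (adjusted p = 0.035, SE 0.15). In HOIL-deficient cTECs it had 56.5, 57.6 and 63.1 CPM, against 83.9, 82.5 and 97.5 CPM in control cTECs, at -0.66 (adjusted p = 0.014, SE 0.15). The mTEChi call was lost in 10 of 21 alternatives, 8 of them with 1 library left out (HOIL-deficient mTEChi replicate 1 or 2, control mTEChi replicates 1 to 3, HOIL-deficient cTEC replicate 1 or 3 and control cTEC replicate 3; adjusted p = 0.0504 to 0.14). The cTEC call was lost only without control cTEC replicate 3 (adjusted p = 0.061). Fbxw7, the substrate receptor of another MCL1 ligase, had 18.2, 27.7 and 19.1 CPM in HOIL-deficient mTEChi, against 45.7, 39.1 and 27.9 CPM in control mTEChi, at -0.87 (adjusted p = 0.029, SE 0.26). It was lost without HOIL-deficient mTEChi replicate 1 or 3 or control mTEChi replicate 1 or 2 (adjusted p = 0.058 to 0.12) and with males only (0.12).

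Foxo1, a transcription factor of the class that drives Bcl2l11, had 55.7, 62.5 and 73.7 CPM in HOIL-deficient cTECs, against 99.0, 89.0 and 99.3 CPM in control cTECs, at -0.67 (adjusted p = 0.03, SE 0.18). The call was lost without HOIL-deficient cTEC replicate 1 or 2, control cTEC replicates 1 to 3 or control mTEChi replicate 3 (adjusted p = 0.052 to 0.1) and with upper-quartile factors (0.051). Btrc, a substrate receptor for BIM and MCL1 degradation, was at -0.68 in cTECs (adjusted p = 0.0497, SE 0.21), a call that held in 5 of 21 alternatives. It was lost without any of the 6 cTEC libraries, HOIL-deficient mTEChi replicates 1 to 3 or control mTEChi replicate 3 (adjusted p = 0.063 to 0.15), and with RLE (0.076) or upper-quartile factors (0.088) among others. Between the cell types 0 of the 8 were higher in mTEChi, 4 being lower in HOIL-deficient cells and 5 in controls, where 16.4% and 26.4% of all tested genes were lower and 32.0% and 37.8% higher. Foxo3, another factor for Bcl2l11, averaged 1.01 ± 0.796 CPM in HOIL-deficient mTEChi against 10.7 ± 3.38 CPM in HOIL-deficient cTECs, and 2.16 ± 0.439 CPM in control mTEChi against 20.6 ± 2.96 CPM in control cTECs (SD, n = 3 each). Foxo1 was lower in mTEChi by 0.89 in HOIL-deficient cells (adjusted p = 0.0012) and by 1.56 in controls (adjusted p = 8.5e-06), and Btrc by 1.38 in controls (adjusted p = 7.9e-05).

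Across the 12 libraries the genes whose log2 CPM followed each member most closely were found by Pearson's r. The libraries fall into 4 groups, so r mostly follows the group means; it is a description without a test. Bcl2a1a was closest to Pcbd1 (r = 0.996) and Extl1 (0.995), Bcl2a1b to Dcpp1 and Cib3 (both 0.996) and Bcl2a1d to Gsdma (0.997) and Cib1 (0.996). Bcl2l1 was closest to Atp13a4 and Ptpn18 (both 0.97), Mcl1 to Trpm1 (0.971) and Rtkn2 (0.965), and Bcl2 to Flna (0.978) and Dcaf7 (0.971). Bax was closest to Snf8 (0.977) and Prnp (0.941), and Bcl2l11 to Smoc1 (0.961) and Ccdc162 (0.95). The closest genes reached only 0.89 for Bid (Nemf) and 0.88 for Bak1 (Dhx9).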

How the data were processed

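The authors deposited raw gene-wise counts, 1 file per library, made with featureCounts on the mm10 build per the submitters' processing notes; no source used here gives the aligner, annotation release or strand setting (not stated). Per the labels, RNA of freshly sorted cells was amplified with a SMART-Seq v4 low-input kit and sequenced as paired 75-base reads. The gene lengths in bases are those of the deposited files. Names came from a table that matched 25275 of 27179 gene IDs; IDs without a name held 4.53 to 6.10% of counts.

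Each library was compared with the others of its group and none was a copy (chi-square per gene 6.45 to 58). Counts were fitted in R 4.3.3 with edgeR 4.0.16: TMM scaling, filterByExpr on the 4 groups (19398 genes kept), 1 quasi-likelihood fit over all 12 libraries, and Benjamini-Hochberg adjustment over all tested genes with a threshold of 0.05. Contrasts were HOIL-deficient over control in each cell type, their difference (mTEChi minus cTECs), and mTEChi over cTECs in each genotype. CPM used library totals of 7941217 to 14274333, and intervals are 95%. The script was tested on simulated data. Alternatives were RLE and upper-quartile factors, DESeq2 1.42.0, limma-voom (limma 3.58.1), no filter, the compared groups alone, males only, each library left out, replicate blocks and summed paralogs.

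The 10 members and all lists were chosen with earlier results of these data known. Genes named beside the members are, per list, up to 4 called genes of smallest p in each HOIL comparison and up to 3 in the control cell type comparison; likeness is given for the 2 genes of highest r on log2 CPM with a prior count of 1. Sequences are from RefSeq (GRCm38.p6) and from GENCODE transcripts on GRCm38, the mm10 assembly.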

Additional observations from a re-analysis of the deposited data

Results flagged for a closer look

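By edgeR's test of the difference itself (effect in mTEChi minus effect in cTECs, on the log2 scale), 9 of the genes tested in 4 lists were called. The lists held 10 members, 16 other family genes, 20 further genes linked to apoptosis and 8 turnover genes. Of all tested genes 9.84% were called. The 9 include Bcl2a1a and Bik, which had few counts in cTECs and passed the filter largely through mTEChi, so their number describes the libraries only. Bcl2a1a was the 1 member among the 9, at -2.41 (adjusted p = 0.0098), with log2 fold changes of -0.97 in mTEChi and 1.44 in cTECs (the cTEC effect was not called). Its cTEC libraries had 1 to 9 counts and it passed the filter on low counts through mTEChi alone, so nothing is read from that value. Casp2 differed by 1.75 (adjusted p = 0.0089), was higher in HOIL-deficient mTEChi and lower in HOIL-deficient cTECs, and was called in all 21 alternatives.

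The remaining differences were lost in some alternatives. Aifm1 differed by 0.89 (adjusted p = 0.021), and was lost without replicate 3 of HOIL-deficient or of control mTEChi (adjusted p = 0.056 to 0.065), with upper-quartile factors (0.055) and with males only (0.063). Bcl2l15 differed by -2.08 (adjusted p = 0.023), and was lost without HOIL-deficient cTEC replicate 2, control cTEC replicate 3 or control mTEChi replicate 1 (adjusted p = 0.057 to 0.058) and with limma-voom (0.069). Birc5 differed by 1.80 (adjusted p = 0.026), and was lost without HOIL-deficient mTEChi replicate 1 or 2 or control mTEChi replicate 1 or 3 (adjusted p = 0.052 to 0.076) and with genotype and replicate number as a block (0.068). Bnip3l differed by 0.84 (adjusted p = 0.024), and was lost without HOIL-deficient cTEC replicate 1, HOIL-deficient mTEChi replicate 1 or 2 or control mTEChi replicate 3 (adjusted p = 0.051 to 0.062), with RLE (0.06) or upper-quartile factors (0.073) and with males only (0.057). Btrc differed by 1.16 (adjusted p = 0.027), and was lost without HOIL-deficient cTEC replicate 1, control cTEC replicate 3, HOIL-deficient mTEChi replicate 1 or 3 or control mTEChi replicate 3 (adjusted p = 0.059 to 0.073), with RLE (0.054) or upper-quartile factors (0.061), with males only (0.065) and with genotype and replicate number as a block (0.052). Birc3 differed by 0.92 (adjusted p = 0.033), a call held in 9 of 21 alternatives and lost in 8 of the 12 with 1 library left out (adjusted p = 0.055 to 0.091), with RLE (0.068) or upper-quartile factors (0.075), with males only (0.093) and with the replicate block (0.054). Bik differed by -2.12 (adjusted p = 0.042), a call held in 8 of 21 alternatives and lost in 9 of the 12 with 1 library left out (adjusted p = 0.062 to 0.098), with limma-voom (0.094), with males only (0.11) and with either replicate block (0.063 and 0.081). The cTEC levels of Bik were 0.829 to 2.25 CPM in HOIL-deficient and 0.103 to 0.737 CPM in control libraries, so nothing is read from its difference.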

How the results depend on the processing

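Over all members and alternatives, 196 of 210 values in mTEChi, 170 of 207 in cTECs, 192 of 210 of the difference, 211 of 220 between HOIL-deficient cell types and 201 of 220 between control cell types kept direction and side of the threshold. The 4 members called in mTEChi were called under each alternative that left no library out; Bcl2l1 was lost without 1 of 4 libraries, with log2 fold changes of -0.97 to -0.59 when 1 library was left out. In cTECs 0 members were called under RLE factors, upper-quartile factors, limma-voom, males only, no filter, or the compared groups alone, and 0 to 1 with 1 library left out (Bcl2l1 -0.87 to -0.50). The compared groups alone gave no value for the Bcl2a1 genes in cTECs, which did not pass the filter there.

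The labels do not say whether libraries with the same number share mice. Within a genotype, deviations of same-numbered cTEC and mTEChi libraries correlated at -0.03 to 0.09, under the 0.1 set for pairing. The numbers were not taken as pairs. Between HOIL-deficient cTECs and mTEChi every library correlated best with its own number (0.0447, 0.0644 and 0.0318), a hint from the data. Replicate 3 is the female library in both groups, and sex-linked genes were not left out. For replicate 3, shared mice and shared sex therefore cannot be told apart. In controls the best match was not the own number for every library. With the replicate number as a block, 0 members were called in cTECs (Bcl2l1 -0.70, adjusted p = 0.06), Bax between control cell types was at 1.19 (adjusted p = 0.11), and cTEC Bax turned to -0.02.

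Other signs turned for values that were not called. With males only these were mTEChi Mcl1 (0.045), cTEC Bax (-0.01), and between HOIL-deficient cell types Bak1 (-0.19) and Bid (0.016). For cTEC Bcl2a1b the value was 0.029 with RLE factors, 0.047 with upper-quartile factors, 0.03 with DESeq2, 0.10 with limma-voom, 0.004 with no filter, 0.12 with males only and 0.16 with summed paralogs, the sum also replacing Bcl2a1d at 0.16. Between control cell types Mcl1 was called with RLE (0.57), upper-quartile (0.55), DESeq2 (0.57) and limma-voom (0.40). The cause of these changes was not tested.

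With 1 library left out, mTEChi values ran from -0.082 to 0.051 for Mcl1 and -0.79 to 0.53 for Bak1. cTEC values ran from -0.13 to 0.41 for Bcl2, -0.34 to 0.015 for Mcl1, -0.44 to 0.27 for Bcl2a1b and -0.26 to 0.48 for Bax. The difference of effects ran from -0.011 to 0.53 for Bcl2, -0.27 to 0.13 for Bcl2l1, -0.013 to 0.34 for Mcl1, -0.31 to 0.37 for Bcl2a1d, -0.15 to 0.99 for Bax and -0.98 to 0.31 for Bak1. Between cell types Bax ran from 1.21 to 1.87 in HOIL-deficient cells, and in controls Mcl1 from 0.24 to 0.59, Bcl2l11 from 0.71 to 0.94, Bax from 0.53 to 1.66 and Bak1 from -0.019 to 1.31.

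Counts over all genes were 3858 in mTEChi (1944 to 4395 with 1 library left out), 2342 in cTECs (1340 to 2409; 1540 with males only, 1395 with the compared groups alone) and 1908 for the difference (949 to 2088; 1030 with males only). Upper-quartile factors changed the split in mTEChi to 1708 higher and 1979 lower, in place of 2191 and 1667, and RLE factors that of the difference to 714 and 873 (upper-quartile 651 and 899), in place of 1159 and 749. The median over all genes moved by over 0.1 between control cell types, to 0.60 with no filter, 0.43 with RLE factors or DESeq2 and 0.41 with upper-quartile factors. For the difference it moved to -0.03 with no filter, -0.05 with RLE factors or DESeq2 and -0.07 with upper-quartile factors, and in cTECs to -0.15 with limma-voom.

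Depth limits the Bcl2a1 genes in cTECs, at 1 to 9 counts a library, and Bak1, at 21 to 96. With 3 libraries a group, intervals for Bax and Bak1 include changes as large as those called elsewhere.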
